A study of Mus musculus with 16 samples.

Results

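Sialomucins are membrane proteins with a long outer part rich in O-linked sugar chains that end in sialic acid. A chosen set of 4 sialomucin genes was read in mouse bone endothelial cells, and other sialomucins are read further below as a list. These were Emcn (endomucin), Cd34, Podxl (podocalyxin) and Cd164 (endolyn), and they were taken by gene symbol, or by Ensembl identifier where a file gave only that, from 20261 genes shared by the 3 deposited tables. The 16 RNA-seq libraries came from sorted bone endothelial cells of C57BL/6 mice. Of these, 3 were from the metaphysis (mpECs) and 3 from the diaphyseal bone marrow (bmECs) of mice labelled wildtype, which the methods describe as 3-week-old carriers of the Cdh5-mT/nG reporter. Another 3 controls were Yap1flx/flx and Wwtr1flx/flx without Cdh5CreERT2, and 3 libraries with the label ECKO had the same floxed alleles with Cdh5CreERT2, all at postnatal day 21. The last 4 were 2 Lats2flx/flx controls without Cdh5CreERT2 and 2 Lats2 cKO libraries with it, for which the labels give no age and the methods again give 3 weeks. Cdh5CreERT2 is a Cre recombinase made under the promoter of the endothelial cadherin Cdh5 and switched on by tamoxifen, so that floxed alleles are cut in endothelial cells only after injection, and the controls were Cre-negative littermates. The methods state biological triplicates, but the Lats2 groups hold 2 libraries each here, and the labels do not say whether libraries came from separate animals, so the p-values measure the spread between these libraries.

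Sialomucins line the blood side of vessels, where their sugar chains form part of the glycocalyx. Emcn is found on capillaries and veins and hinders the contact of leukocytes with the vessel wall, and its protein, together with CD31, marks the metaphyseal capillaries of growing bone. Cd34 and Podxl are members of 1 family, made by endothelium and by blood progenitors. Podxl helps to open the vessel lumen by linking to the actin cortex through ezrin-type proteins. Cd164 is not of that family, is widely made, and sits on blood progenitors and in endosomes and lysosomes.

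The 4 genes lie apart in the genome. In GRCm38, Emcn is on chromosome 3 from 137341067 to 137432185 and Cd34 on chromosome 1 from 194938819 to 194961279, both on the plus strand. Podxl is on chromosome 6 from 31519488 to 31563981 on the minus strand, and Cd164 on chromosome 10 from 41519414 to 41531048 on the plus strand. All are protein-coding, and 2.03% of the exon bases of Cd34 lie opposite Gm16897, a gene on the other strand. The other 3 share no exon bases with another gene. Cd34 and Cd164 changed in opposite directions in 2 of the comparisons below, and the bases before their start sites are shown, with those of Emcn for comparison. A link between these bases and the changes was not tested. The sequences were taken from RefSeq promoters (build GRCm38.p6), which held 3 of the 4 genes (Podxl was not matched), and end just before the first annotated base of the gene. Capitals mark GGAAG and CAGGAA (letters found in sites of ETS factors), ACGTG (core of the hypoxia response element) and GGGCGG (GC box), on either strand. GGAAG and CAGGAA can overlap.
Emcn, chr3:137340828-137341066, plus strand: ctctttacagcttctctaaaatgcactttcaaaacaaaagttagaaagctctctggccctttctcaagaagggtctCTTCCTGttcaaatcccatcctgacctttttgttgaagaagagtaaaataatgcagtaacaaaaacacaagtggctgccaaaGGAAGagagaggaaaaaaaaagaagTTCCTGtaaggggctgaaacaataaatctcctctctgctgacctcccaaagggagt
Cd34, chr1:194938571-194938818, plus strand: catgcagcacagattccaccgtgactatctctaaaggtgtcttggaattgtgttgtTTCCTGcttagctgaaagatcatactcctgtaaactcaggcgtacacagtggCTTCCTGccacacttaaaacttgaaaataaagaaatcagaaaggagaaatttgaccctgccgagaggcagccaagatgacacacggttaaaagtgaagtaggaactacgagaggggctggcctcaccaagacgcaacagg
Cd164, chr10:41519250-41519413, plus strand: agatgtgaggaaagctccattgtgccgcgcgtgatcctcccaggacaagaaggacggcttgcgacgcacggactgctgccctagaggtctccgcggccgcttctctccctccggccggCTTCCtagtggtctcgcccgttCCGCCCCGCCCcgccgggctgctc

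The Cd164 stretch had 68.3% G and C over 164 bases with 18 CpG, against 46.4% and 6 CpG in the 248 bases of Cd34 and 40.6% and 0 CpG in the 239 bases of Emcn. The median over the 250 upstream bases of all 32851 RefSeq promoters was 52.4%. CAGGAA was present 2 times before both Emcn and Cd34, where 24.6% and 25.6% of all promoters have it at least 1 time in windows of those lengths. It was not found before Cd164. GGGCGG was present 2 times before Cd164, where 18.6% of all promoters have it at least 1 time in a window of that length, and not before Emcn or Cd34. GGAAG was found before all 3 genes, as in 47.5% to 63.7% of all promoters. In none of the 3 stretches was GGAATG, the core of the site of the TEAD factors that carry Yap1 and Taz to DNA, or ACGTG found, and these were present in 8.82% to 12.6% and in 10.2% to 16.5% of all promoters. The further motifs searched, on both strands, were a longer ETS motif, GGAAGT, which contains GGAAG itself. Also searched were AGATAA for the erythroid and endothelial GATA family, then CACCC for Krueppel-like factors, and lastly the TATA box, read as TATAAA. No stretch held any of these 4.

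Levels are given in FPKM (fragments per kilobase of transcript, scaled by depth), a unit that corrects for gene length and library size, so levels of different genes can be set side by side within a library. From the FPKM steps, between 4728490 and 14733800 reads per library were recovered, and the member with the fewest had 201 reads (Podxl in a bmEC library). In mpECs, Cd34 was the most abundant member and ranked 88 to 109 from the top of a library, followed by Emcn (257 to 345), Cd164 (525 to 590) and Podxl (2374 to 2930). In bmECs the order was Cd164 (rank 328 to 375), Emcn (541 to 575), Cd34 (1093 to 2122) and Podxl (5518 to 7026). In the libraries of both mutant experiments Cd34 was again first, at ranks 44 to 172, and Podxl was last in the Yap1/Taz table and in the Lats2 controls. Emcn was low in the Yap1/Taz table, at 28.9 to 49.1 FPKM and rank 1024 to 1775, whereas it ranked 299 to 395 in the Lats2 table. The 3 tables were normalized separately, so no test was made across them. In bulk RNA, fewer cells of a type and less RNA per cell cannot be told apart. The summed level of 7 blood progenitor markers, of which Kit, Gata2 and Ptprc are the best known, was 393.9 to 438.6 FPKM in the Yap1/Taz table, 40.3 to 83.7 FPKM in mpECs and bmECs and 55.9 to 64.8 FPKM in the Lats2 table. Cd34 and Cd164 are made by such cells too, and how much of either level came from them was not tested. The mpECs and bmECs were sorted by the fluorescent proteins of the reporter. For the libraries of the Yap1/Taz and Lats2 mice the sources used here do not give the gate, and the methods name antibodies to CD31 and Emcn for sorting bone endothelial cells, so Emcn protein may have been part of it.

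**Figure D1:**
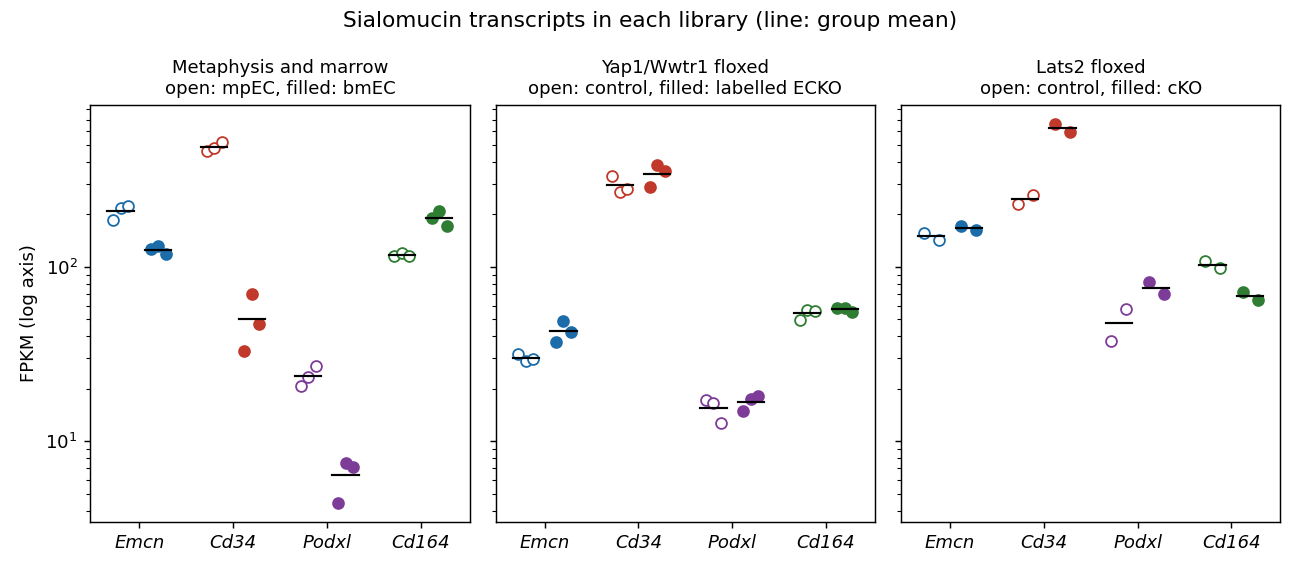
FPKM (log axis) of Emcn, Cd34, Podxl and Cd164 in each of the 16 libraries, with open circles for the first-named group, filled circles for the other and lines at group means. In the left panel Cd34 falls from 465 to 519.9 FPKM in mpECs to 33.1 to 70.03 FPKM in bmECs while Cd164 rises, and in the right panel Cd34 is higher and Cd164 lower in Lats2 cKO.

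Before the mutant libraries were compared, the targeted genes were read in every library. Yap1 was at 1.07, 1.62 and 0.995 FPKM in the controls and at 1.43, 1.03 and 0.989 FPKM in the libraries labelled ECKO, which overlap. Wwtr1, the gene of Taz, was at 10.01, 9.88 and 10.3 FPKM in the controls and higher, at 15.3, 19.6 and 19.5 FPKM, in the libraries labelled ECKO (log2 fold change 0.78, SE 0.12, limma adjusted p = 0.027). That call was lost without any 1 of control replicates 2 and 3 and ECKO replicates 2 and 3 (adjusted p = 0.0752, 0.0715, 0.18 and 0.144, by limma). Yap1 had a log2 fold change of -0.04 (limma adjusted p = 0.934). Neither gene was called lower, so these libraries are called by their label only. An FPKM covers the whole gene and does not show whether a floxed exon was lost. Lats2 was at 23.4 and 24.0 FPKM in its controls and at 19.2 and 19.2 FPKM in Lats2 cKO, a log2 fold change of -0.29 (SE 0.11, limma adjusted p = 0.125). It was not called lower either, so Lats2 cKO is likewise used as a label. The endothelial markers (Pecam1, Cdh5, Kdr, Tek, Tie1, Erg, Esam, Flt1 and Eng) were all detected in each table. Their summed level was 984 to 1311 FPKM in mpECs and 1262 to 1352 in bmECs. It was 481 to 520.5 in Yap1/Taz controls and 566 to 672 in libraries labelled ECKO, and 2266 to 2424 in Lats2 controls and 2306 to 2358 in Lats2 cKO. Of these 9 markers, 3 were called higher and 3 lower in bmECs, and none was called in the libraries labelled ECKO. In Lats2 cKO Pecam1 was called higher (log2 fold change 0.85) and Kdr (-0.95) and Tek (-1.35) lower. The near-equal Lats2 sums thus hold changes in both directions.

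The first comparison asked how endothelial cells of the marrow differ from those of the metaphysis. In bmECs, Cd34, Podxl and Emcn were lower and Cd164 was higher, and no member's groups overlapped, as for 41.3% of all tested genes. By limma with Benjamini-Hochberg adjustment over 11422 genes, all 4 members passed an adjusted p of 0.05, where 23.5% of all tested genes did (36.1% at an unadjusted p). Of these, 3 members were lower, against 10.5% of genes, and 1 was higher, against 13.0%. With limma-voom on recovered reads, 22.4% of genes were called lower and 8.26% higher. A larger absolute log2 fold change was found in 0.149% of genes for Cd34, 1.72% for Podxl, 11.8% for Emcn and 12.8% for Cd164.

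Podxl, the lumen protein of the Cd34 family, was at 20.9, 23.4 and 27.1 FPKM in mpECs and at 4.45, 7.55 and 7.12 FPKM in bmECs. Every bmEC library was below every mpEC library, and the means differed 3.73-fold. The log2 fold change of FPKM + 1 was -1.77 (95% interval -2.19 to -1.35, limma adjusted p = 0.000421). Cd34 was at 465, 479.9 and 519.9 FPKM in mpECs and at 33.1, 70.03 and 46.9 FPKM in bmECs, and the groups lie far apart. Its mean was 9.76-fold higher in mpECs, and the log2 fold change was -3.32 (95% interval -3.86 to -2.79, limma adjusted p = 7.57e-05).

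Emcn changed less. It was at 186, 218 and 224 FPKM in mpECs and at 127, 132 and 118 FPKM in bmECs. On the log2 scale this was -0.73 (95% interval -0.95 to -0.51, limma adjusted p = 0.00128). Cd164 was the member that rose, from 116, 119.8 and 116 FPKM in mpECs to 192, 210.4 and 171 FPKM in bmECs. On the log2 scale it rose by 0.69 (95% interval 0.48 to 0.91, limma adjusted p = 0.00136). When each library was divided by its summed endothelial markers, an alternative chosen after the data were seen, Cd164 had a log2 fold change of 0.55 and missed the threshold (limma adjusted p = 0.0704, with the median of all genes moved by -0.13), and the other 3 members kept their calls.

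The makeup of these 4 sialomucin transcripts was therefore different. Other sialomucins are not in this sum, such as Madcam1 (mean 15.9 FPKM in mpECs and 143 in bmECs) and Cd24a (107 and 92.9). Cd34 made up 57.0% to 59.0% of the summed FPKM of the 4 genes in mpECs and 9.28% to 16.7% in bmECs. Cd164 went from 13.1% to 14.7% in mpECs to 49.8% to 53.8% in bmECs. The share of Emcn was 23.7% to 25.9% in mpECs and 31.4% to 35.6% in bmECs although its level was lower, since the 4-gene sum was 839 ± 49.6 FPKM (SD, n = 3) in mpECs and 373 ± 40.6 FPKM (SD, n = 3) in bmECs. Podxl was the smallest part in both, at 2.65% to 3.05% and 1.25% to 2.07%.

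**Figure D2:**
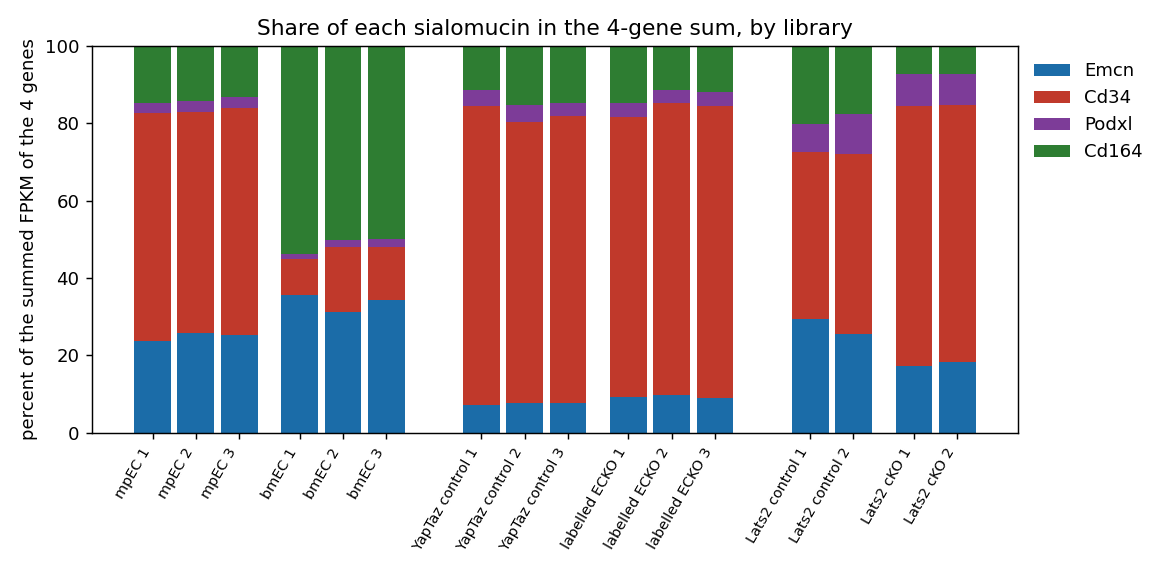
Share (percent) of each of the 4 genes in their summed FPKM, 1 bar per library. Cd34 takes 57.0% to 59.0% of the sum in mpECs but at most 16.7% in bmECs, where Cd164 takes 49.8% to 53.8%, and it takes 66.6% to 67.1% in Lats2 cKO.

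Ratios of 2 members within a library do not depend on library scaling, and all 6 pairs were compared. Emcn stood at 0.401, 0.455 and 0.431 FPKM per FPKM of Cd34 in mpECs, and at 3.84, 1.88 and 2.52 in bmECs, so that Emcn was the lower of the pair in mpECs and the higher in bmECs. The ratio of Cd34 to Cd164 went from 4.003, 4.006 and 4.47 to 0.172, 0.333 and 0.274, a log2 difference of -4.05. Within the Cd34 family, Cd34 fell by more than Podxl, and the ratio of Cd34 to Podxl changed from 19.2 to 22.3 in mpECs to 6.59 to 9.27 in bmECs, a log2 difference of -1.42. None of the 6 ratios overlapped between groups. The two-sided exact permutation p was 0.1 for each pair, and 0.1 after adjustment over the 6 pairs, which is the smallest that 3 against 3 libraries can give.

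Most of the arterial and sinusoidal markers read here also differed between mpECs and bmECs. The summed level of 8 arterial markers (among them Efnb2, Gja4 and Gja5) was 151.6 to 187 FPKM in mpECs and 39.1 to 53.0 FPKM in bmECs. Of the 8, 6 were called lower, and Sox17 (log2 fold change 0.006) and Dll4 (-0.40) were not called. The 4 sinusoidal markers (Stab1, Stab2, Flt4 and Vcam1) summed to 379 to 605 FPKM in mpECs and 1258 to 1519 FPKM in bmECs. Of these, 3 were called higher, and Stab1 (0.06) was not called. The 6 osteoblast markers (among them Bglap and Col1a1) summed to 217 to 760 FPKM in mpECs and 43.4 to 58.0 FPKM in bmECs, with 3 of 5 tested called lower. The osteoclast markers summed to 40.9 to 74.9 FPKM in mpECs and 23.9 to 27.9 FPKM in bmECs, with all 3 tested (Ctsk, Acp5 and Mmp9) called lower and Calcr listed at 0 in every library. Blood progenitor markers summed to 53.7 to 83.7 FPKM in mpECs and 40.3 to 54.0 FPKM in bmECs, with Kit called lower of 6 tested. Hemoglobin and other erythroid transcripts were at 17665 to 32858 FPKM and 27477 to 37767 FPKM, and myeloid markers at 8209 to 19406 FPKM and 6546 to 9388 FPKM. Stromal and pericyte markers summed to 22.0 to 28.5 FPKM in mpECs and 13.7 to 40.4 FPKM in bmECs, with Lepr called higher of 3 tested. B-cell markers were at 137 to 265 FPKM and 117 to 150 FPKM, with Ebf1 called lower of 5 tested. The part of each in the sialomucin results was not tested.

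The genes that work with sialomucins were read from lists of other sialomucins, selectins, partners of their inner tails, O-glycan enzymes and sialic acid enzymes, 59 genes in all. Of the 45 with a mean of at least 1 FPKM in mpECs and bmECs, 12 were called higher and 5 lower in bmECs, which is 37.8% of those tested against 23.5% of all genes, and their median log2 fold change was 0.06 against -0.00 over all genes. Without mpEC replicate 3 the count was 10, and without bmEC replicate 3 it was 11.

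Among other sialomucins, 1 of 6 tested was called, which is 16.7% against 23.5% of all genes. This was Madcam1, the mucin-like ligand of the integrin of gut-homing lymphocytes, at 7.75 to 31.6 FPKM in mpECs and 91.7 to 196 FPKM in bmECs (log2 fold change 3.32, limma adjusted p = 0.00257). Glycam1, a secreted sialomucin of lymph node vessels, was listed at 0 in every library of all 3 tables. Both endothelial selectins rose: Sele, which captures leukocytes on inflamed vessels, from 44.4 to 69.7 FPKM to 219 to 239.6 FPKM, and Selp, its partner stored for quick release, from 67.8 to 93.2 FPKM to 182 to 256 FPKM.

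Of the 7 tail partners, 2 were lower in bmECs and none higher. This is 28.6% called, near the 23.5% of all genes, and their median log2 fold change was 0.04. Slc9a3r2 (NHERF2, an adaptor that binds the tail of Podxl) had a log2 fold change of -0.80 and Msn (moesin, a link to actin) of -0.59, with limma adjusted p of 0.0129 and 0.00115. Of 14 O-glycan enzymes tested, 5 were higher and 1 lower (42.9% called). Galnt15 and Galnt18, of the family that adds the first sugar of O-glycans, rose by 1.68 and 0.71 on the log2 scale, and the sulfotransferase Chst2 by 1.57. Of 15 sialic acid genes tested, 4 were higher and 2 lower (40% called). St6galnac2 and St6galnac3, which add sialic acid to the O-glycan core, rose by 1.78 and 0.60, and Cmas, which activates sialic acid, had a log2 fold change of -0.58.

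**Figure D3:**
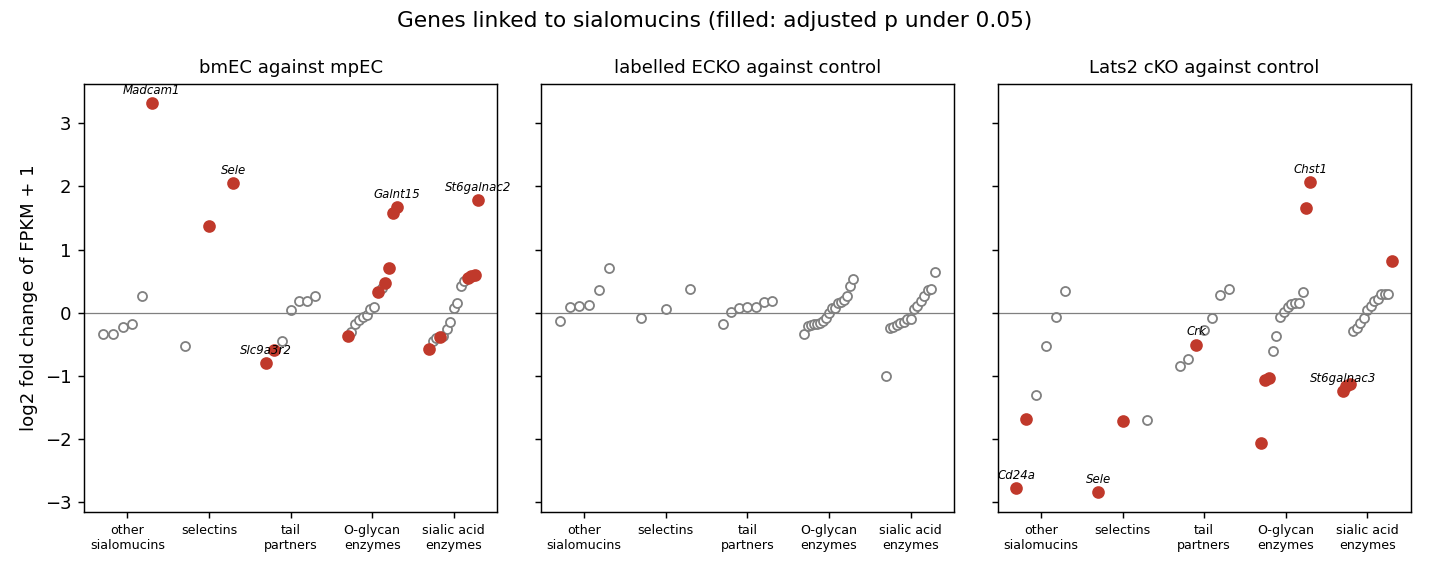
Log2 fold change of FPKM + 1 (vertical axis) for the tested genes of the 5 lists in each comparison, filled where the limma adjusted p was under 0.05 and named where the called change was the largest of its list. In bmECs 12 are higher and 5 lower, none is called in the libraries labelled ECKO, and in Lats2 cKO 3 are higher and 11 lower.

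The next comparison set the libraries labelled ECKO against their controls, and directions refer to that label. None of the 4 members was called by limma, where 1.31% of 11320 tested genes were (0.883% higher and 0.424% lower), and 1 of 4 (Emcn) had an unadjusted p under 0.05, as 17.9% of all genes did. Emcn was at 31.5, 28.9 and 29.7 FPKM in the controls and at 37.1, 49.1 and 42.1 FPKM in the libraries labelled ECKO. Its groups did not overlap, which held for 23.6% of all genes, and its log2 fold change was 0.49 (95% interval 0.23 to 0.74, limma adjusted p = 0.066). It passed the threshold without ECKO replicate 1 (log2 fold change 0.58, limma adjusted p = 0.0306) and with limma-voom on recovered reads (0.46, adjusted p = 0.035).

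The summed endothelial markers were also higher in the libraries labelled ECKO, by the ranges given above. As a share of that sum, Emcn was at 6.55%, 5.55% and 6.03% in the controls and at 6.55%, 7.71% and 6.27% in the libraries labelled ECKO, so that on this scale the groups overlap. With libraries scaled to the endothelial sum, an alternative chosen after the data were seen, its log2 fold change was 0.17 (limma adjusted p = 0.269). That scaling moved the median of all tested genes by -0.29. Relative to this median Emcn was at 0.46, and at 0.49 in the main fit. Taking off the median largely undoes the scaling, so the 0.46 is no check on endothelial content. Of the 4 sinusoidal markers, Stab1 and Flt4 were called higher, with a summed level of 918 to 1122 FPKM in the controls and 1093 to 1199.8 FPKM in the libraries labelled ECKO, and blood progenitor markers were at 393.9 to 438.6 FPKM and 394.6 to 416 FPKM. The 6 osteoblast markers summed to 27.6 to 40.2 FPKM in the controls and 6.98 to 19.6 FPKM in the libraries labelled ECKO, with Bglap and Col1a1 called lower of 4 tested. B-cell markers summed to 202 to 232 FPKM and 163 to 168 FPKM, with 0 of 6 called. Of 6 megakaryocyte markers, 1 (Ppbp) was called higher. The part of these lists in the Emcn values was not tested.

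Cd34 was at 334, 270.3 and 280.4 FPKM in these controls and at 286, 383 and 353 FPKM in the libraries labelled ECKO, which overlap, with a log2 fold change of 0.20 (95% interval -0.10 to 0.51, limma adjusted p = 0.47). Podxl was at 17.2, 16.6 and 12.8 FPKM against 14.9, 17.6 and 18.1 FPKM, with 0.12 (95% interval -0.18 to 0.41, limma adjusted p = 0.688). Cd164 was at 49.8, 56.6 and 56.0 FPKM against 57.9, 58.0 and 55.2 FPKM, with 0.08 (95% interval -0.13 to 0.28, limma adjusted p = 0.722). These intervals leave room for a change of up to 1.42-fold for Cd34, 1.33-fold for Podxl and 1.22-fold for Cd164. Scaled to the endothelial sum, the log2 fold changes were -0.12, -0.19 and -0.24, so the sign of all 3 turns with that scaling, and none was called. Relative to the median of all genes, which it moved by -0.29, they were at 0.17, 0.10 and 0.05. These values largely undo the scaling and are no check on endothelial content.

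Relative to the other members, Emcn stood higher in the libraries labelled ECKO. Its ratio to Cd34 was 0.0943, 0.107 and 0.106 in the controls and 0.130, 0.128 and 0.119 in the libraries labelled ECKO, a log2 difference of 0.30. The log2 differences of Emcn to Podxl and to Cd164 were 0.37 and 0.42, and these 3 ratios did not overlap between groups (two-sided exact permutation p = 0.1 each, the smallest possible, and 0.2 after adjustment over 6 pairs). In 2 of them the groups nearly touched. For Emcn to Podxl the highest control was at 2.323 and the lowest library labelled ECKO at 2.326, and for Emcn to Cd164 these were at 0.633 and 0.641. The 3 ratios without Emcn overlapped and gave exact permutation p of 0.8 to 0.9. None of the 48 tested genes of the 5 lists was called by limma. Of these, 10 had an unadjusted p under 0.05, where 17.9% of all tested genes did. With limma-voom 2 were called, where 3.16% of all genes were.

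**Figure D4:**
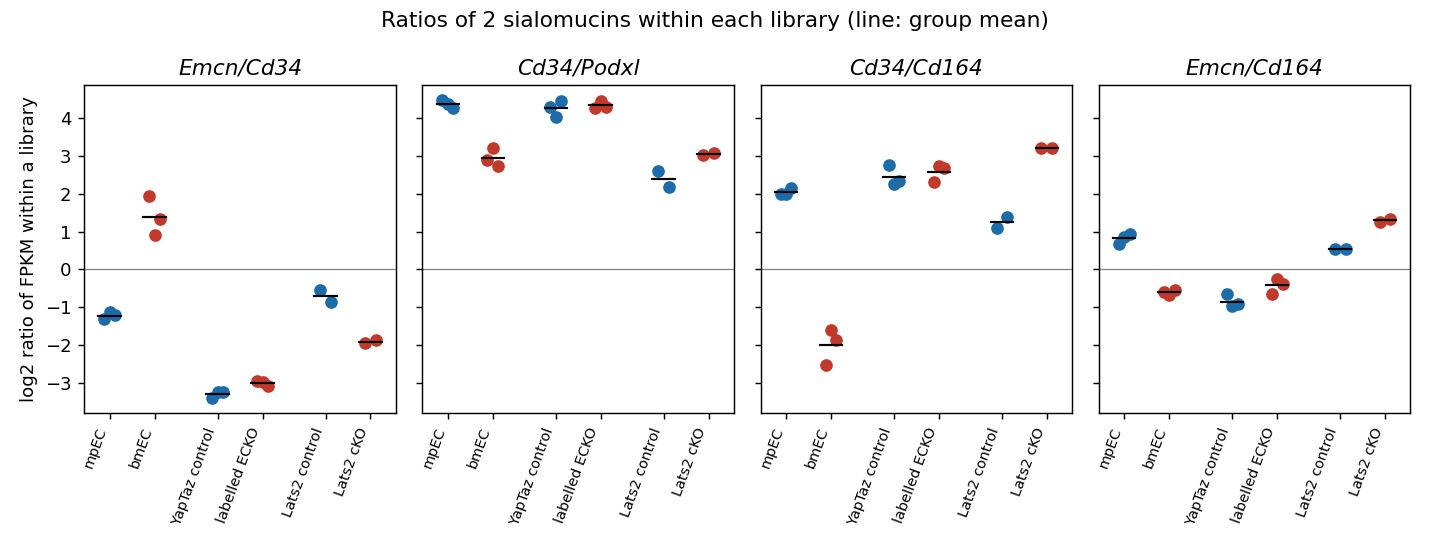
Log2 ratio of the FPKM of 2 members within each library (vertical axis), with blue points for the first-named group of a comparison, red for the other and lines at group means. Emcn/Cd34 and Cd34/Cd164 move in opposite directions in bmECs and in Lats2 cKO relative to their reference groups, and the Yap1/Taz groups lie close to each other.

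The last comparison set Lats2 cKO against its controls, Lats2 being a kinase that keeps Yap1 and Taz out of the nucleus. Cd34 was higher and Cd164 lower in Lats2 cKO. With 21.8% of 12451 tested genes called (38.6% at an unadjusted p under 0.05), 2 of the 4 members were, 1 higher (11.8% of genes) and 1 lower (9.98%). Cd34 was at 230.1 and 258 FPKM in the controls and at 663 and 592 FPKM in Lats2 cKO, a rise of 2.57-fold in the means. Its log2 fold change was 1.36 (95% interval 1.00 to 1.71, limma adjusted p = 0.00913). With either control left out it kept its size (1.28 without replicate 1 and 1.44 without replicate 2) and lost the call (limma adjusted p = 0.137 and 0.116), and in both of those fits 0 genes were called while 2724 and 2878 had an unadjusted p under 0.05.

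Cd164 was at 107.6 and 98.3 FPKM in the controls and at 71.9 and 64.5 FPKM in Lats2 cKO. The log2 fold change was -0.59 (95% interval -0.90 to -0.27, limma adjusted p = 0.0307). This call was lost without the filter on low values (adjusted p = 0.0541), without the mean-variance trend (0.0551), without either control (0.235 without replicate 1 and 0.177 without replicate 2) and without Lats2 cKO replicate 2 (0.0802), all by limma.

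Podxl was at 37.8 and 57.3 FPKM in the controls and at 81.7 and 70.3 FPKM in Lats2 cKO, so the controls lay further apart than the cKO libraries. The groups did not overlap, as for 68.2% of all genes with 2 libraries a group, and the log2 fold change of 0.69 missed the threshold (95% interval 0.13 to 1.25, limma adjusted p = 0.0806). Emcn was at 157 and 143 FPKM and at 172 and 162 FPKM. Its log2 fold change was 0.15 (95% interval -0.15 to 0.46, limma adjusted p = 0.40), which became -0.10 with quantile normalization. The interval leaves room for an Emcn level up to 1.38-fold higher. Scaling to the endothelial sum changed none of these 4 calls.

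**Figure D5:**
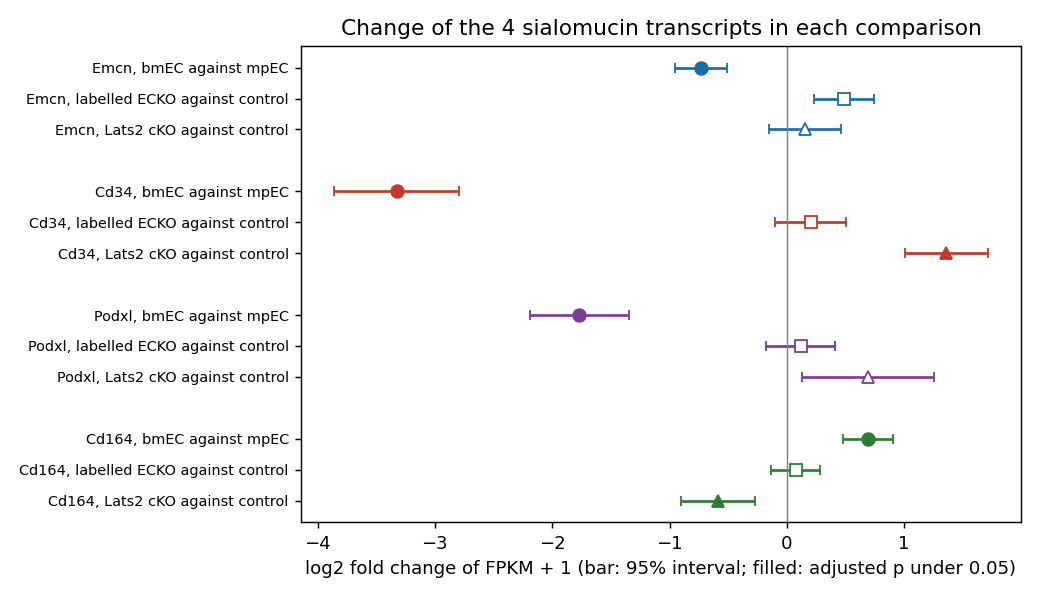
Log2 fold change of FPKM + 1 (horizontal axis) with 95% intervals from limma for the 4 members in the 3 comparisons, filled where the adjusted p was under 0.05. All 4 are filled in bmECs, none in the libraries labelled ECKO, and Cd34 (1.36) and Cd164 (-0.59) in Lats2 cKO.

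In Lats2 cKO, Cd34 made up 66.6% to 67.1% of the 4-gene sum, against 43.2% to 46.4% in the controls, and the sum was 889 to 988 FPKM against 533 to 557 FPKM. Cd164 made up 7.26% to 7.28% against 17.7% to 20.2%, and Emcn 17.4% to 18.2% against 25.7% to 29.5%. The ratio of Cd34 to Cd164 was 2.14 and 2.63 in the controls and 9.22 and 9.18 in Lats2 cKO, a log2 difference of 1.96. Podxl was the lower of the pair with Cd164 in the controls, at a ratio of 0.351 and 0.583, and the higher in Lats2 cKO, at 1.14 and 1.09. No ratio overlapped between groups, and the exact permutation p of each was 0.333, the smallest that 2 against 2 libraries allow.

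The sinusoidal markers, which were higher in bmECs, were lower here, with all 4 called and a summed level of 143 to 191 FPKM in Lats2 cKO against 811 to 972 FPKM in the controls. The arterial markers summed to 202 to 259 FPKM against 157 to 196 FPKM, with 1 of 8 called higher. Erythroid markers were at 179.7 to 1103 FPKM against 1941 to 2659 FPKM, myeloid markers at 460.2 to 609 FPKM against 1217 to 1805 FPKM and B-cell markers at 23.0 to 29.4 FPKM against 78.2 to 89.8 FPKM. Called lower were 2 of 6 erythroid, 3 of 7 myeloid and 4 of 5 tested B-cell markers, and none was called higher. Blood progenitor markers were at 55.9 to 60.9 FPKM against 58.6 to 64.8 FPKM, a sum in which Kit was called higher and Myb and Gata2 lower, of 5 tested. Stromal and pericyte markers were at 22.6 to 31.2 FPKM against 9.45 to 10.3 FPKM, with Acta2 and Rgs5 called higher of 4 tested. Osteoblast markers were at 40.8 to 65.8 FPKM against 12.6 to 65.4 FPKM, with Spp1 called higher of 5 tested. Osteoclast markers were at 32.8 to 57.1 FPKM against 28.8 to 34.3 FPKM, with Ctsk called higher of 3 tested. Megakaryocyte markers were at 9.45 to 12.4 FPKM against 29.8 to 114 FPKM, with Pf4 called lower of 6 tested. The part of each in the Cd34 and Cd164 results was not tested, and the megakaryocyte markers Gp9 and Gp1bb and the B-cell marker Rag1 were listed at 0 in both Lats2 cKO libraries.

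Of the 45 list genes tested in the Lats2 table, 3 were called higher and 11 lower, which is 31.1% against 21.8% of all genes, with a median log2 fold change of -0.09 against -0.00. Both endothelial selectins fell, Sele from 135 and 177 FPKM in the controls to 14.0 and 30.4 FPKM, and Selp from 154 and 177 FPKM to 44.8 and 55.5 FPKM. Their log2 fold changes were -2.84 and -1.71 (limma adjusted p = 0.012 and 0.00809). Of 6 other sialomucins tested, 33.3% were called, against 21.8% of all genes. These were Cd24a and Selplg, both made by leukocytes, which fell by 2.77 and 1.68 on the log2 scale. The part of leukocyte content in these values was not tested. Of the tail partners, 1 of 7 was called (14.3%, against 21.8% of all genes), the adaptor Crk with a log2 fold change of -0.50.

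Among the O-glycan enzymes, 2 were higher and 3 lower of 14 tested, which is 35.7% called against 21.8% of all genes. The sulfotransferase Chst1 rose from 8.92 and 9.47 FPKM to 30.8 and 55.8 FPKM and Galnt12 from 1.03 and 1.41 FPKM to 5.67 and 6.23 FPKM, whereas Galnt18 fell from 235 and 239.4 FPKM to 49.5 and 64.2 FPKM. Among the sialic acid genes 1 was higher and 3 lower of 15 tested (26.7% called). The lower ones were St6galnac3 (log2 fold change -1.24), St6gal1 (-1.16) and St6galnac2 (-1.13). Without the filter on low values, or without Lats2 cKO replicate 2, 9 of the list genes were called, and without either control none was, as for all genes.

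Set side by side, Cd34 and Cd164 were called in opposite directions in the marrow and Lats2 comparisons, which share no libraries. Cd34 was at -3.32 in bmECs and 1.36 in Lats2 cKO on the log2 scale, Podxl at -1.77 and 0.69, Emcn at -0.73 and 0.15, and Cd164 at 0.69 and -0.59, where the Lats2 values of Podxl and Emcn were not called and that of Emcn was -0.10 with quantile normalization. No test of this difference was made, because the tables were normalized separately.

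Across all 16 libraries, with the mean of each table removed, log2(FPKM + 1) of Cd34 and Podxl had a Pearson correlation of 0.97 and that of Cd34 and Cd164 one of -0.89. Emcn had 0.82 with Cd34, 0.79 with Podxl and -0.61 with Cd164. These are descriptions, since the 16 libraries are not independent points but share 3 tables and 6 groups. Likeness was measured among 4946 other genes whose mean reached 5 FPKM in each table, and the genes most like Cd34 were Nid2 (nidogen-2 of the basement membrane, r = 0.991), Emp1 (0.987) and Fstl1 (0.985). Those most like Podxl were Nid2 (0.986), Cd34 itself (0.973) and Emp1 (0.965). Emcn was most like Pmp22 (0.935), Rap2a (0.935) and Gng11 (0.932), and Cd164 most like Jak1 (the cytokine receptor kinase, 0.972), Ccdc69 (0.971) and Trf (transferrin, 0.967). Nid2 had log2 fold changes of -2.95 in bmECs, 0.09 in the libraries labelled ECKO and 1.17 in Lats2 cKO, and Jak1 had 1.47, 0.08 and -1.42. Both genes were picked for following a member over these same libraries, so their shared directions follow from that choice.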

How the data were processed

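Libraries were grouped by their labels, 16 in 3 tables. The authors mapped reads with TopHat and counted them per gene with HTSeq (version 0.6.1), on GRCm38 (mm10), and deposited FPKM values, and the step from counts to FPKM and the strand setting are not given in the sources used here. The authors used DESeq2 on counts that are not used here. The 4 genes, all lists and the 9 motifs were chosen with earlier results of these data known. The test used all genes whose mean in a comparison reached 1 FPKM, on log2(FPKM + 1) with limma (version 3.58.1, R 4.3.3), with a mean-variance trend, 1 group term and Benjamini-Hochberg adjustment over all tested genes, and called at an adjusted p under 0.05. On this scale the change of a low gene comes out too small. Ratios were tested by a two-sided exact permutation test. Reads were recovered from FPKM steps with GENCODE lengths, and 62.4% to 69.1% of values up to 20 reads came within 0.02 of a whole read. Named genes were the 4 members, the 3 largest called changes of each list, genes that a sentence needed and the 3 genes most like each member. The fit was tested on simulated data. In the Lats2 table, 4 entries with duplicate names were left out. Of 21603 identifiers in the Yap1/Taz files, 21375 matched a symbol. The values of 1 list gene are not reported here. Alternatives are described in the closing section.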

Additional observations from a re-analysis of the deposited data

How the results depend on the processing

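In bmECs against mpECs the 4 members kept their direction in 15 alternatives each, and only Cd164 lost its call, at 0.55 with libraries scaled to the summed endothelial markers, a setting chosen after the data were seen. With 1 library left out the log2 fold changes ranged from -0.81 to -0.68 for Emcn, -3.60 to -3.07 for Cd34, -1.89 to -1.57 for Podxl and 0.62 to 0.77 for Cd164, and the list genes called from 10 to 15.

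In the Yap1/Taz table Emcn passed the threshold with limma-voom on recovered reads (0.46), and leaving out 1 library gave 0.39 to 0.58. Podxl ranged from -0.0066 (without control replicate 3) to 0.20. Scaled to the endothelial sum, Cd34 was -0.12, Podxl -0.19 and Cd164 -0.24, where the median of all genes moved by -0.29. Yap1 ranged from -0.14 to 0.077 with 1 library left out (0.077 without control replicate 2 and 0.01 without ECKO replicate 3). Wwtr1 was 0.72 to 0.89 with 1 library left out and lost its call at 0.78 with no filter and with no trend. The ratio Cd34/Podxl was -0.0385 to 0.177 with 1 library left out (lowest without control replicate 2), and Podxl/Cd164 -0.11 to 0.186 (below 0 without control replicate 3 or ECKO replicate 3). Genes called numbered 1 with no filter, 17 with no trend, 357 with limma-voom and 1 to 293 with 1 library left out, against 148 (1 without ECKO replicate 2 or 3, 14 and 20 without control replicate 3 and 2, 293 without ECKO replicate 1), and list genes 2 with limma-voom and 0 to 2 with 1 library left out.

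In the Lats2 table Emcn was -0.10 with quantile normalization. Cd34 was 1.28 to 1.44 and Cd164 -0.66 to -0.51 with 1 library left out, and the lone library was then assumed to vary like the other group. Cd164 lost its call at -0.59 with no filter and with no trend. Lats2 passed the threshold with limma-voom (-0.44), a fit that moved the median of all genes by -0.14. Genes called numbered 1389 with no filter and 0 to 2701 with 1 library left out, against 2711 (0 without either control, 931 without cKO replicate 2), and list genes 9 and 0 to 18.

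Limma-voom on recovered reads moved the median of all genes by -0.20 in bmECs and -0.14 in Lats2 cKO, and 27.0% and 38.4% of its calls were higher, against 55.2% and 54.1%. In the libraries labelled ECKO these were 57.4%, against 67.6%. Relative to that median, Cd34 was -3.35 and 1.37 and Cd164 0.70 and -0.59.

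Same-numbered libraries had correlations of deviations of 0.307, 0.0876 and 0.102 for mpECs and bmECs, -0.175, -0.123 and -0.155 in the Yap1/Taz table and 0.0651 in the Lats2 table, and mpEC replicates 1 and 3 correlated best with the bmEC library of their own number and replicate 2 did not. The labels give the numbers no meaning, so the libraries were not treated as pairs, and a shared animal or day for mpECs and bmECs was not tested. With the replicate block, 1597 genes were higher and 1475 lower in bmECs, 45 were called in the Yap1/Taz table and 2655 in the Lats2 table. It changed no member's call. Podxl had 201 to 1920 recovered reads in a library. The cause of these changes was not tested.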
